A study of Mus musculus with 66 samples.

Results

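The 7 genes described here mark a fetal-like state of injured gut epithelium and were followed through a course of experimental colitis in mice. They are Ly6a, Ly6d, Clu, Anxa1, Anxa3, Ctgf and Cyr61, taken from the table by symbol. They were 7 of the 30452 genes in the table of transcript abundances. The study gave C57Bl/6 mice, bought at 6 weeks of age, 3% dextran sulfate sodium (DSS), which strips and inflames the colonic lining, for 6 days from day 0. Uninjured mice (day 0, 4 mice) and mice at day 3, 6, 9, 14 or 20 (3 mice per day) were killed, and mid-colon, rectum and anus were taken from each of the 19 mice. A section of squamous neo-epithelium was added from the 9 mice of days 9, 14 and 20, so that there were 66 samples in 21 groups. Days 3 and 6 fell within or at the end of DSS exposure, and days 9, 14 and 20 after it. The labels name 1 strain and no altered allele, and every uninjured mouse went without DSS. The muscle layer had been cut away, and the samples were bulk mucosa of 1 mouse each. Sex, age at dissection, cages and sequencing runs were not given in the sources used here.

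When the intestinal lining is destroyed, surviving crypt cells lose the stem cell genes of the adult crypt for a time and take up genes of the fetal gut, a state driven in part by the transcription regulators YAP and TAZ, which act through TEAD proteins bound to DNA. Ly6a (also called Sca-1, a lipid-anchored surface protein that interferon can induce) marks this state in colitis. Clu (clusterin, a secreted chaperone) marks the revival stem cells that rebuild crypts. Anxa1 and Anxa3 encode annexins, which bind membranes in the presence of calcium, and Anxa1 protein restrains neutrophil entry and helps wounds close. Ctgf and Cyr61 encode secreted CCN proteins of the matrix and are classical YAP and TAZ targets. Ly6d, a relative of Ly6a, is a surface protein of stratified squamous epithelium. Several of these genes are also made outside the epithelium: Clu by follicular dendritic cells, Anxa1 by neutrophils, and Ctgf and Cyr61 by fibroblasts and vessels.

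In GENCODE M21 on mouse build GRCm38 (mm10), Ly6a lies at chr15:74994877-74998031 and Ly6d at chr15:74762056-74763620, both on the minus strand of the same chromosome. Clu lies at chr14:65968483-65981547 (plus strand), Anxa1 at chr19:20373428-20390944 (minus), Anxa3 at chr5:96793339-96845966 (plus), Ctgf at chr10:24595442-24598683 (plus, now named Ccn2) and Cyr61 at chr3:145646976-145649981 (minus, now named Ccn1). Since Cyr61 is read in the field as a direct TEAD target, the RefSeq promoter of Cyr61 (GRCm38.p6) is shown for the 250 bases before its start, chr3:145649986-145650235, minus strand, read 5′ to 3′ along the gene.
Cyr61: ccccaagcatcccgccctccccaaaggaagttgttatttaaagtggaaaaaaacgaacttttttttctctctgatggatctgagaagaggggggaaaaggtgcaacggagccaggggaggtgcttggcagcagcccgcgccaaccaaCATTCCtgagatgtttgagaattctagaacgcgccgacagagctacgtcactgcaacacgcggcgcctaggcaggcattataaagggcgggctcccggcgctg
The capitals mark CATTCC, which is the TEAD motif GGAATG read on the other strand. It was the 1 match on either strand of this window, and the AP-1 motif TGANTCA, searched the same way, was not matched there. GGAATG on either strand was held by 12.6% of the 32851 RefSeq promoter windows of this length, and TGANTCA by 6.75%. These matches are descriptions of the letters only.

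All values are TPM, the transcript share scaled to 1000000 per sample, a relative abundance adjusted for transcript length, summed over the transcripts of each gene. Between 11268 and 13789 genes reached 1 TPM in a sample, mitochondrial transcripts took 6.26% to 28.5% of the total, and the depth per sample is unknown because no read counts were in the table. Summed levels of cell type markers followed the section labels in the uninjured mice. The 7 squamous markers (keratins 5, 14, 13, 4 and 15, Trp63 and Dsg3) summed to 9513 to 15065 TPM in anus, 12.8 to 113 TPM in rectum and 4.44 to 8.30 TPM in mid-colon. The 6 colonocyte markers summed to 552 to 1852 TPM in anus, 7023 to 9006 TPM in rectum and 7526 to 9639 TPM in mid-colon. In anus that colonocyte sum was 1266 to 3155 TPM at day 3 and 15.4 to 54.4 TPM at day 6. Smooth muscle markers (5 genes) were present despite the removal of muscle, at 805 to 952 TPM in uninjured rectum. The neo-epithelium held 24152 to 26107, 11728 to 17624 and 16632 to 18667 TPM of squamous markers at days 9, 14 and 20.

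Without injury, 6 of the 7 genes differed between anus and rectum, and Ly6d and Anxa1 by the most. Ly6d was 2562, 1969, 1477 and 1243 TPM in the anus of mice 1 to 4, against 19.6, 6.37, 7.15 and 11.7 TPM in their rectum and 1.16, 1.39, 0.907 and 3.56 TPM in their mid-colon. Anxa1 was 7723, 5161, 4689.9 and 3633 TPM in anus, 512, 431, 497 and 537 TPM in rectum and 345, 337, 458 and 377 TPM in mid-colon. In each mouse both genes stood far higher in the anus, with no overlap between anus and colon. By limma on log2(TPM + 1), with Benjamini-Hochberg adjustment over all 13158 genes tested and calls at an adjusted p under 0.05, 5 members were higher and 1 lower in anus than in rectum. In that comparison 60.3% of all genes were called in either direction, and 25.9% higher and 34.4% lower in anus. The log2 differences were 7.28 ± 0.33 (SE) for Ly6d, 3.37 ± 0.21 for Anxa1, 1.76 ± 0.41 for Clu, 1.51 ± 0.25 for Cyr61 and 1.24 ± 0.24 for Ctgf, with limma adjusted p between 1.4e-07 and 0.0043. Anxa3 went the other way, at 71.9, 69.1, 56.1 and 91.9 TPM in anus and 166, 156, 159 and 179.6 TPM in rectum (log2 difference -1.20, limma adjusted p 1.1e-04). Ly6a was nearly level, at 807, 599, 604 and 581 TPM in anus, 631, 550.1, 581 and 738 TPM in rectum and 575, 821, 858 and 936 TPM in mid-colon, and its anus-to-rectum difference of 0.05 (95% interval -0.28 to 0.37) was not called.

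Between uninjured rectum and mid-colon, 2 of the 7 members were called, against 1.79% of 12037 genes (1.52% higher and 0.274% lower in rectum). Ly6d was higher in rectum (log2 difference 2.11, limma adjusted p 0.0289) and Anxa3 was lower (-0.43, limma adjusted p 0.0352). Neither call was kept when mouse 1, 2 or 3 was left out. Within uninjured rectum the levels ran in the order Ly6a (625 TPM on average), Anxa1 (494), Anxa3 (165), Clu (23.6), Ctgf (20.8), Ly6d (11.2) and Cyr61 (2.00), and Clu, Ctgf and Ly6d overlapped in their ranges over the 4 mice.

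**Figure D1:**
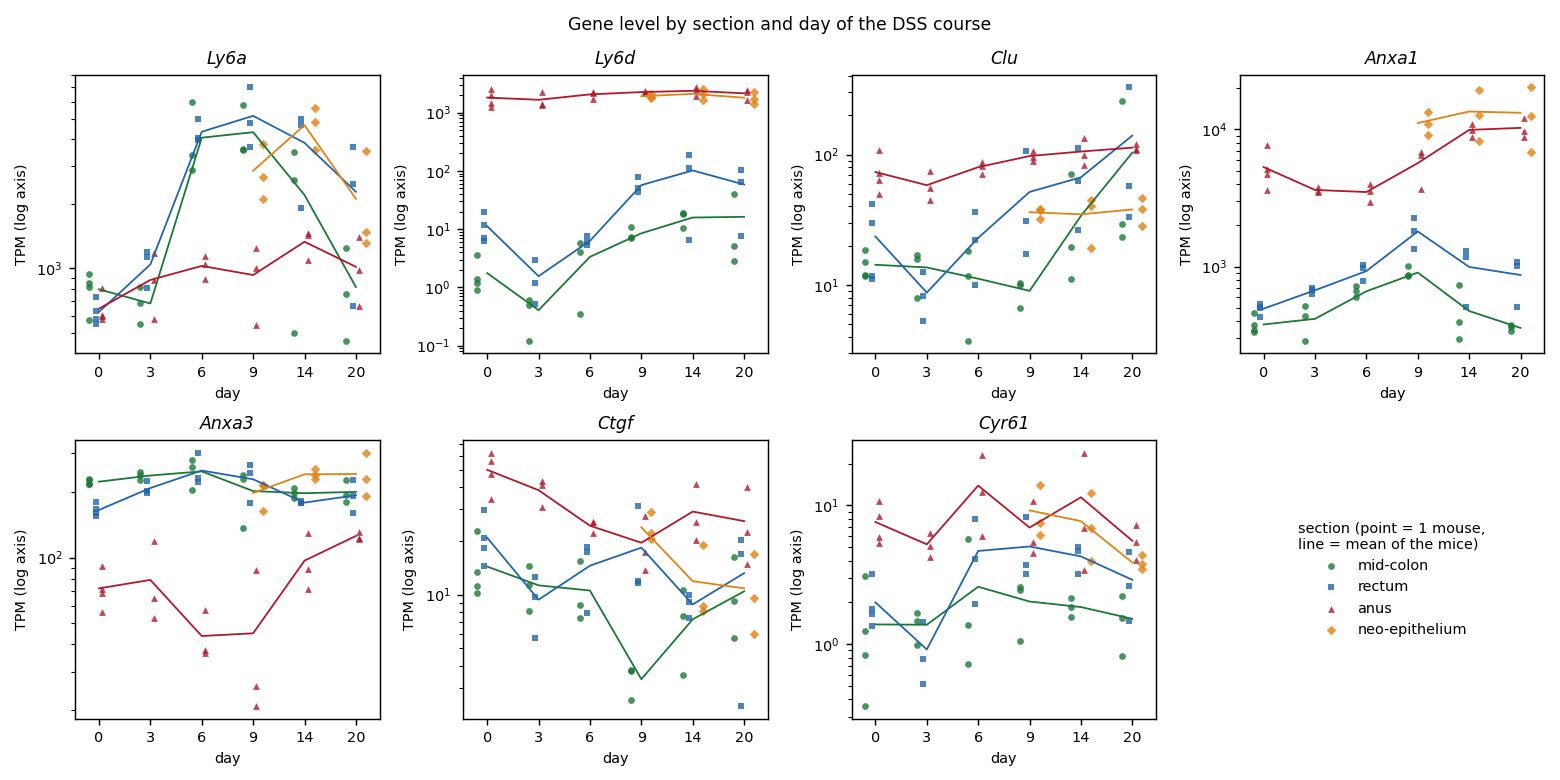
Level of each gene in TPM (log axis) against the day of the DSS course, with 1 point per mouse, a line through the mean of the mice, and colours for the 4 sections. Rectal Ly6a rose from 550.1 to 738 TPM at day 0 to 3684 to 7018 TPM at day 9, while anal Ly6d ranged from 1243 to 2730.3 TPM over all days.

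The question of the time course was how each section changed against its own uninjured level. All comparisons of 1 section share the same 4 uninjured samples. In rectum at day 3, where 6.62% of genes were called in either direction, 3 members rose (1.5% of genes higher) and 1 fell (5.13% lower). At day 6, 3 rose (48.7% of genes called, 11.5% higher), and at day 9, 5 rose (53.5% called, 33.5% higher). At day 14 (15.8% called), 2 rose (6.31% higher) and 1 fell (9.51% lower). At rectal day 20 none was called by limma (7.68% of genes), although 3 members had an unadjusted p under 0.05.

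In mid-colon no member was called at day 3 (0.375% of genes called by limma, 1 member at an unadjusted p under 0.05). At day 6, 2 rose (14.9% called, 4.93% higher). At day 9 (43.4% called), 3 rose (26.5% higher) and 2 fell (17% lower). At day 14, 1 rose (4.36% called, 2.55% higher), and at day 20 none was called (1.56%, with 2 members at an unadjusted limma p under 0.05). In anus no member was called at day 3 (0.044% of genes called, 0 members at an unadjusted limma p under 0.05). At day 6 (15% called), 1 rose (8.64% higher) and 1 fell (6.37% lower). At day 9, 1 fell (5.09% called, 3.63% lower), and at day 14, 1 rose (4.27% called, 2.26% higher). At anal day 20 none was called (1.46% of genes), with 5 members at an unadjusted limma p under 0.05. Since so many of all genes were called in rectum at days 6 and 9, the counts at those days are not read as particular to the 7.

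**Figure D2:**
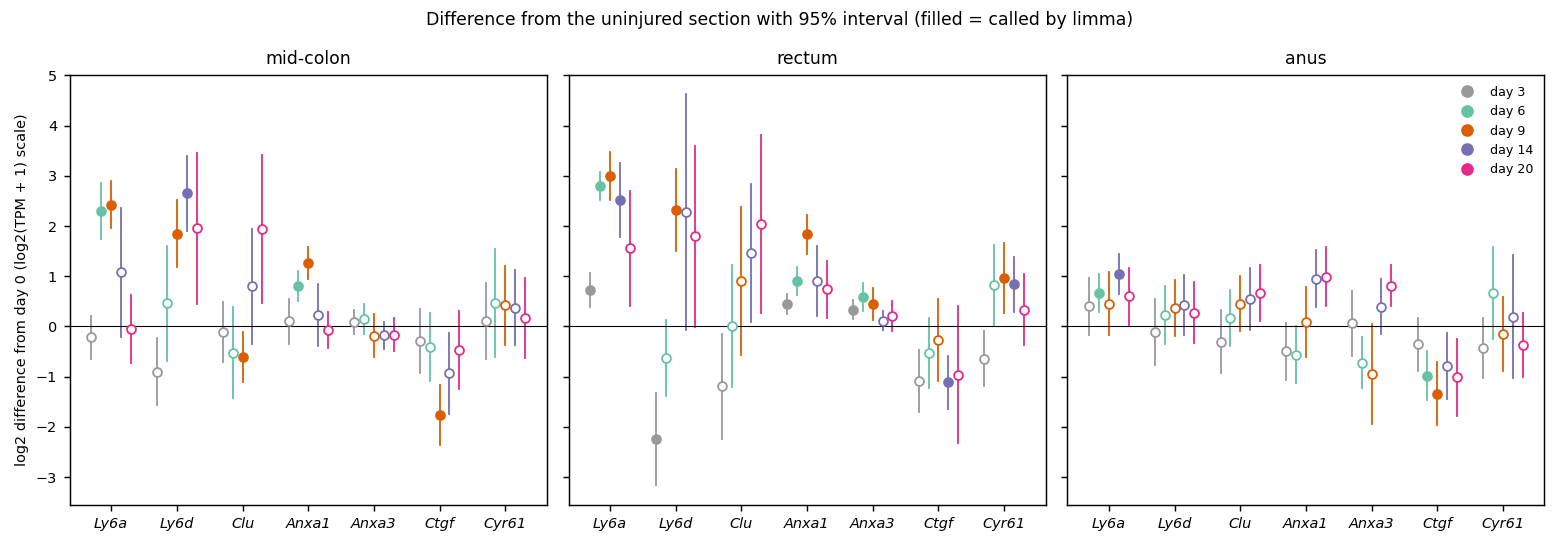
Difference of each gene from day 0 of the same section on the log2(TPM + 1) scale, with its 95% interval from limma, in colours by day; filled points passed the test. The filled points of Ly6a at days 6 and 9 lie between 2.30 and 3.00 in both colonic sections, and the anal panel holds 4 filled points.

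Ly6a had the largest rise of the 7 genes on the log2 scale in rectum at days 3, 6 and 9 and in mid-colon at days 6 and 9. In rectum it was 631, 550.1, 581 and 738 TPM in the uninjured mice, 1195, 1127 and 806 TPM at day 3, 3984, 4081 and 4972 TPM at day 6 and 3684, 7018 and 4766 TPM at day 9. Every injured mouse up to day 14 stood above every uninjured one. The rise was 6.95-fold at day 6 (log2 difference 2.80 ± 0.13 SE, limma adjusted p 7.6e-06) and 8.25-fold at day 9 (3.00 ± 0.21 SE, limma adjusted p 9.3e-06). At day 3 it was 1.67-fold (limma adjusted p 0.0225), a call that was lost when any of mice 1, 2, 3, 5 or 6 was left out (adjusted p 0.0513 to 0.102). At day 14 the rectal values were 1923, 4663 and 4987 TPM (limma adjusted p 0.00634), and mouse 14 was the lowest. At day 20 they were 2473, 3695 and 666 TPM, with mouse 19 within the uninjured range and mice 17 and 18 well above it. The day was not called (log2 difference 1.55, limma adjusted p 0.0878; without mouse 19, 2.28 and 6.6e-04). Leaving out the sample nearest the other group favours a call. Calls gained in that way, here and below, show the dependence on 1 mouse and are not read as support for a change.

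In mid-colon Ly6a was raised at days 6 and 9. It was 575, 821, 858 and 936 TPM at day 0, 816, 692 and 547 TPM at day 3, 2874, 3399 and 5958 TPM at day 6 and 3589, 5793 and 3593 TPM at day 9. Days 6 and 9 lay wholly above day 0 (log2 differences 2.30 and 2.42, limma adjusted p 8.3e-04 and 2.7e-05), and day 3 did not. At day 14 the values split into 497, 2592 and 3512 TPM, with mouse 14 below all uninjured mice (limma adjusted p 0.328; without mouse 14, log2 difference 1.94 and adjusted p 0.00122). At day 20 they were 756, 1239 and 459.6 TPM and overlapped day 0. Anal Ly6a was 1051, 889.7 and 1138 TPM at day 6, 541, 1244 and 1005 TPM at day 9 and 1096, 1461 and 1435 TPM at day 14. The anal rise was called at day 6 (1.58-fold, limma adjusted p 0.03) and day 14 (2.05-fold, limma adjusted p 0.0179). Neither anal call was kept when the TPM values were rescaled by TMM factors (trimmed means that align the libraries; adjusted p 0.159 and 0.0903). Leaving out 1 mouse ended the first for any of mice 2, 3, 4, 8, 9 or 10 (adjusted p 0.0557 to 0.118) and the second for mouse 2, 15 or 16 (0.066 to 0.0845).

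In bulk samples a higher level can come from more cells of a type or from more RNA per cell, and these cannot be told apart here. Neutrophil markers also rose in rectum and mid-colon. The sum of 5 of the 6 neutrophil markers was 0.797 to 5.89 TPM in rectum at day 0 and 4.01 to 5.50 TPM at day 3. It was 362 to 3557 TPM at day 6 and 11063 to 13072 TPM at day 9. From day 6 to day 9 its mean went from 1539 to 12170 TPM in rectum, where mean Ly6a went from 4345 to 5156 TPM. In mid-colon the sum went from a mean of 100 to 1306.5 TPM over these days, and Ly6a from 4077 to 4325 TPM. Ly6g, the sixth, was left out of that sum after its values were seen, because it stood at 639 ± 64.8 TPM (SD, n = 4) in uninjured rectum where S100a8 and Retnlg were near 0. Retnlg was listed at 0 in 7 of 19 rectal and 6 of 19 mid-colonic samples, and S100a8 in 2 and 5. In mid-colon at day 6, Ly6a was 2874, 3399 and 5958 TPM in mice 8, 9 and 10 where the same sum was 60.0, 37.5 and 203 TPM, so mouse 10 had the highest of both, and in the neo-epithelium of mouse 11 Ly6a was 2116 TPM where the sum was 18817 TPM. The sum was also 346 to 1365 TPM in uninjured anus, and whether it counts neutrophils alone in squamous tissue was not tested. In rectum the macrophage sum had means of 85.4, 413 and 561 TPM at days 0, 6 and 9. On the same days the endothelial sum had means of 27.1, 26.5 and 118 TPM, and the T cell sum 3.77, 5.23 and 18.9 TPM. In mid-colon these means were 55.1, 200 and 130 TPM for macrophage markers and 21.2, 23.7 and 22.0 TPM for endothelial markers. For T cell markers they were 2.92, 3.98 and 9.60 TPM. The part of neutrophils, macrophages, endothelium and T cells in the Ly6a level was not tested either.

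Relatives of Ly6a and genes that interferon induces also changed in rectum at these days. In the lists here and below, the shares of all genes are those without TMM factors. At rectal day 9, 7656 of 12960 genes were called in either direction with TMM factors, against 7028 of 13140 without. Of the 16 listed Ly6 and uPAR family genes, 13 (Ly6a and Ly6d among them) were measured at rectal day 9, and 7 rose and 3 fell (7 and 4 with TMM factors; 33.5% of all genes rose and 20% fell; median log2 difference 1.37 against 0.13 for all genes tested). Ly6c1, a marker of monocytes and endothelium, had the largest rise. It stood at 80.1 ± 11.6 TPM (SD, n = 4) in uninjured rectum and at 2181 ± 916 TPM (SD, n = 3) at day 9 (log2 difference 4.68, limma adjusted p 3.0e-06). Ly6g6d had the largest fall (-1.07). Lypd8, a colonocyte surface protein that keeps bacteria off the lining, fell in rectum at day 9 (-0.91) after a rise at day 6 (0.83). All 10 interferon-inducible genes were higher in rectum at day 6 (median 2.29; 11.5% of all genes higher), day 9 (2.89; 33.5%, and 9 of 10 with TMM factors) and day 14 (3.22; 6.31%), and the largest rises on these days were those of Isg15, Iigp1 and Gbp2. At rectal day 20, 1 of the 10, Ifit1, was called (median 1.97; 7.68% of all genes called). In mid-colon at day 9, 5 of 10 were higher (median 1.46; 26.5% of all genes), and in anus at day 9 none was called (median -0.48; 5.09% of all genes called). The counts of this list in mid-colon at day 6, where Ly6a was also raised, are not reported here. Whether interferon had a part in the Ly6a level was not tested. The most abundant Ly6a transcript shares 204 of its 925 stretches of 31 bases with transcripts of other genes, 98 of them with Ly6c1 and 67 with Ly6i, so reads from those stretches could be assigned to either gene. It made up 61.5% of the Ly6a total. Other Ly6a transcripts, among them 1 of 336 bases that made up 32.6%, were not checked for sharing. The most abundant transcripts of Ly6d, Clu, Anxa1, Anxa3 and Cyr61 share none, and Ctgf shares 4 of 2368.

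Ly6d was called lower and then higher in rectum, and was not called in anus. Its rectal level was 19.6, 6.37, 7.15 and 11.7 TPM at day 0 and fell to 1.20, 2.95 and 0.518 TPM at day 3, below every uninjured mouse (7.21-fold lower, limma adjusted p 0.0117; 0.0552 without mouse 5). At day 6 it was 7.74, 5.23 and 5.89 TPM and overlapped day 0. At day 9 it was 50.2, 77.0 and 43.4 TPM, above every uninjured mouse (5.08-fold, log2 difference 2.33 ± 0.36 SE, limma adjusted p 6.8e-04). The step from day 6 to day 9 was 2.96 (limma adjusted p 4.8e-04), 1 of 2 members called higher in that step, beside 37.9% of genes called and 32.1% higher. The summed squamous markers of rectum moved with it, at 12.8 to 113 TPM at day 0, 6.79 to 21.8 TPM at day 3, 8.57 to 35.3 TPM at day 6 and 83.9 to 591 TPM at day 9.

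Later rectal samples spread widely. Ly6d was 6.56, 187 and 111 TPM in mice 14, 15 and 16, and 102, 65.0 and 7.58 TPM in mice 17, 18 and 19. Mice 14 and 19 sat within the uninjured range and the other 4 above it, and neither day was called (limma adjusted p 0.154 and 0.177). Without mouse 14 the day 14 log2 difference was 3.70 (adjusted p 5.2e-04), and without mouse 19 that of day 20 was 2.88 (adjusted p 0.00392). Each of these fits drops the mouse at the uninjured level, which favours a call, so neither is read as support for a rise. The summed squamous markers of the same 6 rectal samples were 25.4, 782 and 471 TPM at day 14 and 443, 269 and 8.49 TPM at day 20, against 12.8 to 113 TPM in uninjured rectum. All 7 squamous markers were in the table, and Trp63 was listed at 0 in 7 of 19 rectal samples. The part of squamous cells in rectal Ly6d was not tested.

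Mid-colonic Ly6d rose from a very low base. It was 1.16, 1.39, 0.907 and 3.56 TPM at day 0, 7.42, 10.8 and 7.11 TPM at day 9 and 10.4, 18.1 and 18.9 TPM at day 14, with no overlap (log2 differences 1.85 and 2.65, limma adjusted p 8.3e-04 and 0.00691). The squamous sum there was 4.44 to 8.30 TPM at day 0, 15.0 to 20.1 TPM at day 9 and 4.61 to 8.55 TPM at day 14, with Trp63 listed at 0 in 11 of 19 mid-colonic samples. At day 14 Ly6d was above all uninjured mice, with the squamous sum at most just above its uninjured range. At day 20 mid-colonic Ly6d was 40.6, 5.22 and 2.88 TPM, the highest in mouse 17. The mid-colonic sum of 5 B cell markers also rose. It was 2.19 to 4.27 TPM at day 0, 8.09 to 15.3 TPM at day 9 and at least 30.8 TPM at day 14. At day 20 it ran from 8.03 to 159 TPM, again the highest in mouse 17. The part of squamous cells and B cells in mid-colonic Ly6d was not tested. In the anus Ly6d ran from 1243 to 2730.3 TPM over all days, with no call on any day and differences from day 0 between -0.11 and 0.43.

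**Figure D3:**
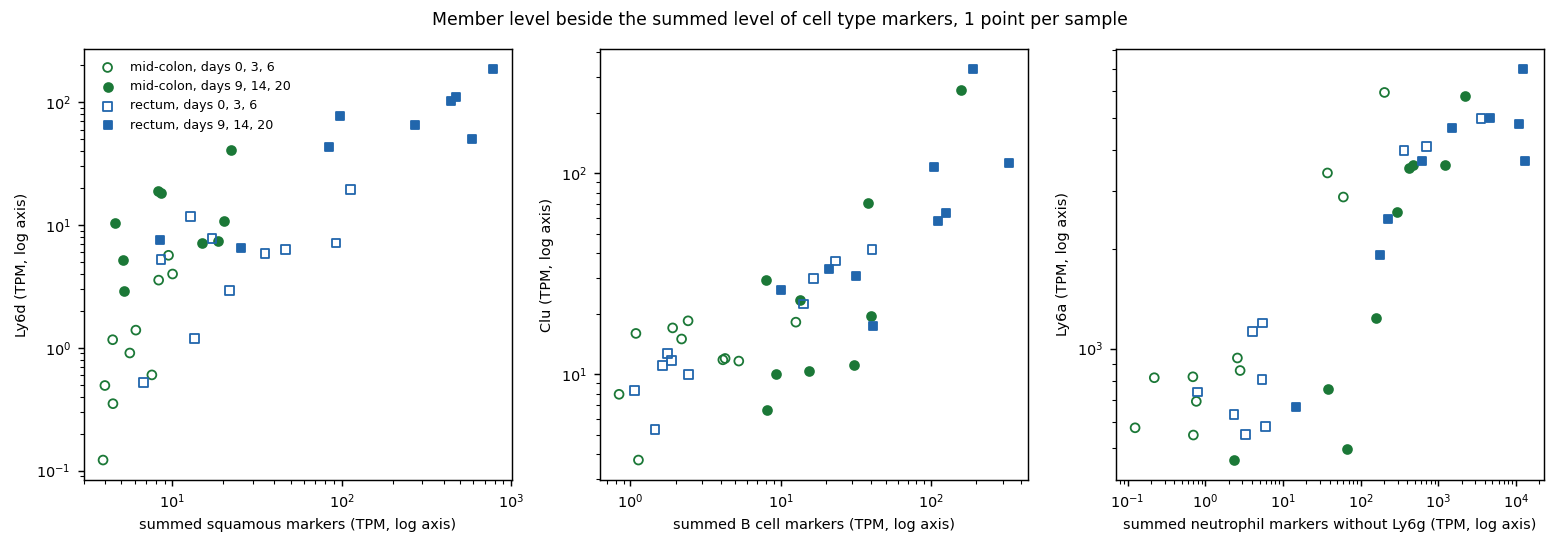
Each point is 1 colonic sample, with the summed level of a marker list on the x axis and the level of Ly6d, Clu or Ly6a on the y axis (both TPM, log axes); circles are mid-colon and squares rectum, open for days 0, 3 and 6 and filled for days 9, 14 and 20. The rectal sample of highest Ly6d, from mouse 15, has the highest squamous sum of the rectal samples, 782 TPM, and the samples of highest Clu, both from mouse 17, hold 189.9 and 159 TPM of B cell markers.

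Clu was not called higher in any section on any day. Rectal Clu was 29.9, 11.0, 11.8 and 41.7 TPM at day 0, 12.6, 5.28 and 8.28 TPM at day 3, 36.5, 22.3 and 10.00 TPM at day 6 and 30.7, 17.3 and 107 TPM at day 9, and each later group overlapped day 0. The difference at day 6 was 0.01 (95% interval -1.21 to 1.22). Mid-colonic Clu at day 9 was 10.4, 6.67 and 9.98 TPM against 15.0, 12.0, 18.4 and 11.8 TPM at day 0, which was called lower (log2 difference -0.61, limma adjusted p 0.0473) and lost that call when any of mice 1, 2, 3, 12 or 13 was left out (adjusted p 0.0579 to 0.185). Late in the course Clu was high in some mice. At day 20 Clu was 329, 57.5 and 33.5 TPM in rectum and 258, 23.4 and 29.6 TPM in mid-colon, and mouse 17 gave the highest of each. All 3 mid-colonic values lay above every uninjured mouse (log2 difference 1.94, 95% interval 0.48 to 3.40), and 2 of 3 rectal ones did. At day 14 it was 26.2, 112 and 63.0 TPM in rectum and 71.1, 11.1 and 19.5 TPM in mid-colon. None of these 4 groups was called (limma adjusted p 0.126 to 0.425). Without mouse 14, rectal Clu at day 14 differed by 2.00 (adjusted p 0.0238). The rectal difference at day 20 was 2.04 (95% interval 0.28 to 3.81), and without mouse 19 it was 2.71 (adjusted p 0.0393).

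B cell markers, which mark lymphoid follicles of the gut wall, were high in the samples of mouse 17. Their sum over 5 of 5 genes was 189.9, 111 and 21.1 TPM in rectum at day 20 and 159, 13.5 and 8.03 TPM in mid-colon, against 1.62 to 40.6 TPM and 2.19 to 4.27 TPM at day 0. In rectum at day 9, mouse 13 had both the highest Clu (107 TPM) and the highest B cell sum (106 TPM) of its group. At day 14 the 2 measures did not go together in every sample. All 3 mid-colonic B cell sums lay above day 0, the lowest at 30.8 TPM in mouse 15, whose Clu was below every uninjured mouse. The rectal sum of mouse 15 was 331 TPM, above that of mouse 17 at day 20, with Clu at 112 TPM against 329 TPM. Among uninjured rectal samples, mice 1 and 4 had the higher Clu (29.9 and 41.7 TPM) and the higher B cell sums (16.5 and 40.6 TPM, against 1.62 and 1.87 TPM in mice 2 and 3). The part of lymphoid tissue in the Clu level was not tested. Anal Clu ran from 44.5 to 134 TPM without a call, and at day 20 (121, 110.1 and 108 TPM) it lay wholly above day 0 and was not called (108, 72.4, 63.8 and 50.0 TPM; limma adjusted p 0.187).

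Anxa1 rose in both colonic sections. In rectum it was 512, 431, 497 and 537 TPM at day 0, 680.2, 635 and 704 TPM at day 3, 1030.2, 779.9 and 974 TPM at day 6 and 1825, 2243 and 1343 TPM at day 9. Each of these days lay wholly above day 0. The rise was 1.36-fold at day 3 (limma adjusted p 0.0201; 0.0846 without mouse 5), 1.88-fold at day 6 (limma adjusted p 0.00101) and 3.65-fold at day 9 (log2 difference 1.84 ± 0.17 SE, limma adjusted p 4.4e-05). Day 9 was also higher than day 6 (log2 difference 0.94, limma adjusted p 0.0105), a step not called with TMM factors (0.43, adjusted p 0.266). In mid-colon Anxa1 went from 345, 337, 458 and 377 TPM at day 0 to 603, 663 and 717 TPM at day 6 and 864, 1002 and 849.9 TPM at day 9, again with no value at the uninjured level (limma adjusted p 0.0064 and 1.1e-04). The mid-colonic step from day 6 to day 9 was called higher, as 31.3% of genes were (0.45, limma adjusted p 0.0283), but turned to -0.0256 with TMM factors (adjusted p 0.897). By day 20 the mid-colonic values were 363, 338 and 373 TPM, within the uninjured range.

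In rectum the later values spread between mice. Anxa1 was 511, 1291 and 1183 TPM at day 14 and 1012, 1089 and 505 TPM at day 20 (limma adjusted p 0.0764 and 0.0983). With TMM factors day 14 was called (log2 difference 0.86, limma adjusted p 0.043) and day 20 was not (0.71, limma adjusted p 0.0982). Mice 14 and 19, whose rectal Ly6d was at the uninjured level, were again the low samples. Without mouse 14 the day 14 difference was 1.32 (adjusted p 1.0e-04), and without mouse 19 that of day 20 was 1.09 (adjusted p 0.00147). Their neutrophil sums without Ly6g, 179 and 14.7 TPM, were the lowest of their days in rectum, and their part in rectal Anxa1 was not tested. The other 4 mice had 227 to 4603 TPM. In the anus, Anxa1 was 7723, 5161, 4689.9 and 3633 TPM at day 0, 3963, 3575 and 2932 TPM at day 6, 9954, 8851 and 10857 TPM at day 14 and 8839, 9729.7 and 12127 TPM at day 20. Days 14 and 20 lay wholly above day 0 and were not called (log2 differences 0.95 and 0.99, limma adjusted p 0.0796 and 0.099). Both were called once mouse 1, the highest uninjured sample, was left out (1.15 and 1.19, adjusted p 0.0216 and 0.0387).

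Anxa3, the other annexin of the set, rose modestly in rectum. At day 3 it was 224, 198 and 202 TPM (limma adjusted p 0.0497, lost in 10 of 12 alternative analyses). Its values were 166, 156, 159 and 179.6 TPM at day 0 and 221, 230.2 and 299.8 TPM at day 6, with no overlap and a 1.51-fold rise (limma adjusted p 0.00549). At day 9 they were 178, 264 and 243 TPM (limma adjusted p 0.0276), of which mouse 11 lay within the uninjured range, and that call was lost with TMM factors (log2 difference 0.19, adjusted p 0.38) and without any of mice 1, 2, 3, 12 or 13 (0.057 to 0.093). In mid-colon it ranged from 137 to 280.1 TPM and no day was called. Anal Anxa3 was 71.9, 69.1, 56.1 and 91.9 TPM at day 0, 57.3, 37.5 and 36.4 TPM at day 6, 25.9, 20.9 and 88.1 TPM at day 9 and 123, 131 and 122 TPM at day 20, and none of these days was called (limma adjusted p 0.0621, 0.284 and 0.0712). Without mouse 13, the highest of its day, the anal fall at day 9 was called (-1.57, adjusted p 0.0152), and with TMM factors so was that of day 6 (-0.81, adjusted p 0.0428). The anal colonocyte sums of the same days were 552 to 1852, 15.4 to 54.4, 15.2 to 37.9 and 186 to 575 TPM, and their part in anal Anxa3 was not tested. Values for Anxa3 came from 1 transcript, since the other 8 listed for the gene carried none.

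The annexin family as a whole was mixed. Of 10 members measured at rectal day 9, 6 rose and 2 fell (4 and 3 with TMM factors; 33.5% of all genes rose and 20% fell; median 0.39 against 0.13 for all genes). Anxa1 had the largest rise, and Anxa13, an annexin of the enterocyte brush border, the largest fall (-2.79, limma adjusted p 8.5e-06). Anxa2 and Anxa5 rose by 1.22 and 1.17, while Anxa8 (-0.16) was not called. In mid-colon at day 9 2 of 10 rose and 2 fell (2 and 4 with TMM factors; 26.5% of all genes rose and 17% fell), and Anxa13 again had the largest fall (-2.48).

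Of the pair of YAP and TAZ targets, Ctgf was called only lower in the time course and Cyr61 only higher. Mid-colonic Ctgf fell from 10.3, 11.2, 22.6 and 13.4 TPM at day 0 to 2.56, 3.78 and 3.75 TPM at day 9, below every uninjured mouse (4.27-fold lower, log2 difference -1.77 ± 0.27 SE, limma adjusted p 5.5e-04). It also fell between day 6 (15.4, 8.80 and 7.38 TPM) and day 9 (log2 difference -1.35, limma adjusted p 0.00519), the 1 member called lower in a step where 40.5% of genes were called (9.27% lower). Rectal Ctgf was 14.5, 20.8, 29.8 and 18.1 TPM at day 0 and 11.7, 11.9 and 31.4 TPM at day 9, which overlapped, and 9.13, 9.91 and 7.38 TPM at day 14, which lay wholly below (2.36-fold, limma adjusted p 0.0217; 0.0652 without mouse 2 and 0.0879 without mouse 16). In anus Ctgf went from 34.3, 56.0, 62.5 and 47.2 TPM at day 0 to 25.4, 22.0 and 25.5 TPM at day 6 and 17.3, 13.7 and 27.6 TPM at day 9. Both days lay wholly below day 0 (limma adjusted p 0.0182 and 0.0293), and leaving out any of mice 2, 8, 9 or 10 at day 6 (adjusted p 0.0538 to 0.081), or any of mice 2, 3, 4, 11 or 12 at day 9 (0.0523 to 0.125), ended the call.

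Stromal markers were lower in some of these groups and level or higher in others. In mid-colon the fibroblast sum was 333 to 460.4 TPM at day 0 and 230.3 to 323 TPM at day 9, and the smooth muscle sum was 668 to 924 and 463 to 611 TPM. In rectum at day 14 the smooth muscle sum was 437 to 794 TPM against 805 to 952 TPM at day 0. The rectal fibroblast sum at day 14, 345 to 632 TPM, overlapped that of day 0 (521 to 636 TPM). The sum of 6 endothelial markers was 16.8 to 24.7 TPM in mid-colon at day 9, against 16.3 to 30.1 TPM at day 0. In rectum at day 14 it was 26.9 to 80.0 TPM against 19.4 to 37.4 TPM. In anus it was 58.3 to 103 TPM at day 6 and 40.4 to 85.3 TPM at day 9, against 19.4 to 44.2 TPM. The anal fibroblast sum at day 6, 2112 to 3006 TPM, was not below that of day 0 (1638 to 2346 TPM), and at day 9 it was lower on average, at 1315 to 1729 TPM. The anal smooth muscle sum was lower on average, with means of 667, 253 and 247 TPM at days 0, 6 and 9. Its ranges overlapped, at 155 to 1052, 168 to 304 and 187 to 309 TPM. None of these markers was listed at 0, and the part of stromal and endothelial cells in Ctgf was not tested.

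Cyr61 was the lowest of the 7 on average in uninjured rectum. Rectal values were 1.36, 1.64, 3.20 and 1.80 TPM at day 0, 0.787, 0.517 and 1.44 TPM at day 3, 4.12, 1.96 and 8.00 TPM at day 6, 3.75, 3.20 and 8.22 TPM at day 9 and 5.00, 4.69 and 3.18 TPM at day 14. Day 9 was called higher (2.53-fold, limma adjusted p 0.0262), its lowest mouse level with the highest uninjured one, and lost the call without any of mice 1, 2, 4 or 13 (0.0561 to 0.0813). Day 14 was called at a limma adjusted p of 0.0483, which was lost without any of mice 1, 2, 4, 14, 15 or 16 (0.0563 to 0.117). At rectal day 9 the fibroblast sum was 774 to 1312 TPM against 521 to 636 TPM at day 0, and the sum of 6 endothelial markers 37.9 to 179.7 against 19.4 to 37.4 TPM, both wholly above day 0. At day 14 they were 345 to 632 and 26.9 to 80.0 TPM. Their part in rectal Cyr61 was not tested. In mid-colon Cyr61 ranged from 0.359 to 5.68 TPM without a call, and in anus from 3.42 to 24.1 TPM, where mouse 10 at day 6 (23.1 TPM) and mouse 14 at day 14 (24.1 TPM) stood apart from their groups.

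Other genes read as targets of YAP and TAZ went both ways. Of 21 listed, 15 were measured at rectal day 9, and 3 rose (the largest rise that of Ajuba, 1.49) and 2 fell (Crim1 the most, -1.65; 3 and 4 with TMM factors; 33.5% of all genes rose and 20% fell), with a median of 0.38 against 0.13 for all genes. At rectal day 6, 2 of 14 rose and 6 fell (2 and 2 with TMM factors; 11.5% of all genes rose and 37.2% fell; median -0.22 against -0.27). In mid-colon at day 9, 0 of 13 rose and 4 fell (0 and 7 with TMM factors; 26.5% of all genes rose and 17% fell; median -0.42 against 0.09). At rectal day 6, 4606 of 12667 genes were called in either direction with TMM factors, against 6145 of 12615 without. In mid-colon at day 9 these numbers were 6537 of 12423 with TMM factors and 5353 of 12323 without. Among 13 measured components of the Hippo pathway, which restrains YAP and TAZ, 3 rose and 1 fell at rectal day 9 (2 and 4 with TMM factors; 33.5% of all genes rose and 20% fell), and the TEAD factor Tead4 had the largest rise in rectum at days 6 and 9 and in mid-colon at day 9 (1.34, 2.49 and 1.46). Of the CCN family, Nov, another secreted matrix protein, fell in rectum at day 9 (-0.69, limma adjusted p 0.028) and in anus (-1.78, limma adjusted p 0.00174).

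A list of 16 other genes tied to fetal-like or wounded epithelium, which shares Anxa2, Anxa5 and Anxa8 with the annexins, was also followed. Of 16 listed and measured in rectum at day 9, 13 rose and none fell (13 and 2 with TMM factors; 33.5% of all genes rose and 20% fell; median 1.44 against 0.13 for all genes), and Plaur, the urokinase receptor, had the largest rise (4.81, limma adjusted p 2.2e-05). At rectal day 6, 9 of 15 rose and 2 fell (9 and 1 with TMM factors; 11.5% of all genes rose and 37.2% fell), with Plaur (2.78) and Hopx (-1.30) at the ends. In mid-colon at day 9, 8 of 14 rose and 2 fell, Lamb3 the most (-1.01; 8 and 4 with TMM factors; 26.5% of all genes rose and 17% fell). At rectal day 14, 4 of 15 rose (6.31% of all genes higher), and at day 20, 1 of 14 (7.68% of all genes called in either direction). Several genes of this list, Plaur, Spp1 and Il1rn among them, are also made by myeloid cells, whose part in these rises was not tested. Among genes of the adult crypt stem cell, 0 of 9 rose and 7 fell in rectum at day 6, the same counts with TMM factors, where 37.2% of all genes fell (median -1.08 against -0.27 for all genes; Cdca7 fell the most, -1.94). In mid-colon 0 of 8 rose and 5 fell, again the same with TMM factors, where 9.99% of all genes fell (median -0.89 against -0.24; Smoc2 the most, -1.29). By day 9, 3 of 10 were higher and 2 lower in rectum (3 and 3 with TMM factors; 33.5% of all genes rose and 20% fell), with Olfm4 (1.96) and Sox9 (-0.97) at the ends. In mid-colon at day 6, 2024 of 12377 genes were called in either direction with TMM factors, against 1785 of 11967 without.

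Whether sections differed in their response was tested as an interaction. At day 6 no member was called between the responses of rectum and mid-colon, and no gene of 12986 was called (0% called by limma; 730 genes, 1 of them a member, had an unadjusted p under 0.05). The interval for Ly6a ran from -0.17 to 1.16. At day 9 the rectal response of Ly6a exceeded that of mid-colon by 0.58 (95% interval -0.12 to 1.27) and that of Anxa1 by 0.58 (0.09 to 1.06), with 0 of 7 members called beside 6.55% of genes (3 members at an unadjusted limma p under 0.05). With the mouse as a block, since both sections came from the same animals, Ctgf (1.49, limma adjusted p 0.0166) and Anxa3 (0.63, limma adjusted p 0.0259) were called, beside 7.87% of genes in that fit. Against anus at day 9, 3 members had the larger rectal response beside 19.9% of genes called (15.6% in that direction). These were Ly6a (2.55 ± 0.37 SE, limma adjusted p 2.4e-04), Ly6d (1.96 ± 0.46, limma adjusted p 0.00836) and Anxa1 (1.74 ± 0.37, limma adjusted p 0.00413). The Ly6d call was lost in 1 of 13 alternative analyses (limma adjusted p 0.124). The block added Anxa3, Ctgf and Cyr61 (limma adjusted p 0.0498, 0.0115 and 0.0103), which made 6 of 7 beside 19% of genes called in that fit. Of the 16 other fetal-like genes, 11 had the larger rectal response and 0 the smaller (11 and 1 with TMM factors; 15.6% of all genes larger; median 1.98 against 0.12), as had 8 of the 10 interferon-inducible genes. In this comparison 3701 of 14602 genes were called in either direction with TMM factors, against 2936 of 14733 without.

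The neo-epithelium, the squamous tissue sampled apart at days 9, 14 and 20, had Ly6d and Anxa1 far above rectum, and Ly6a and Anxa3 above anus. Ly6d was 1773, 2116 and 1842 TPM at day 9, 1674, 2559.6 and 2055 TPM at day 14 and 1388, 2273 and 1744 TPM at day 20, higher than rectum in 9 of 9 mice. Its difference from anus was -0.23 (95% interval -0.46 to 0.01; limma adjusted p 0.0863, and 0.0315 with TMM factors). Anxa1 was 10887, 13258 and 9119 TPM at day 9, 8154, 19451 and 12767 TPM at day 14 and 12477, 20226 and 6798 TPM at day 20, higher than rectum in 9 of 9 mice and higher than anus in 7 of 9. Ly6a was 2116, 3793 and 2660.4 TPM, 3556, 5629 and 4817 TPM and 1309, 3542 and 1483 TPM on the same days. It was higher than in anus in 9 of 9 mice and higher than in rectum in 3 of 9.

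Against rectum, with day in the model, 3 of 7 members were higher beside 42.9% of genes called (20.9% higher). Ly6d differed by 5.28 ± 0.52 SE on the log2 scale (1936 ± 352 TPM against 72.2 ± 56.4 TPM (SD, n = 9); limma adjusted p 5.4e-07), and Anxa1 by 3.42 ± 0.28 (12571 ± 4664 TPM against 1222 ± 560.0 TPM (SD, n = 9); limma adjusted p 4.6e-08). Cyr61 differed by 0.59 (limma adjusted p 0.0371) and lost its call without any of mice 11, 12, 14, 15, 18 or 19 (adjusted p 0.0522 to 0.0896). Ly6a was not called (difference -0.14, 95% interval -0.83 to 0.55).

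Against anus, 3 members were higher and 2 lower beside 59.8% of genes called (40.1% higher and 19.7% lower). Ly6a (1.47 ± 0.23 SE; 3212 ± 1462 TPM against 1092 ± 331 TPM (SD, n = 9); limma adjusted p 4.2e-05) and Anxa3 (1.55 ± 0.25; 227 ± 38.9 TPM against 89.1 ± 42.8 TPM (SD, n = 9); limma adjusted p 7.5e-05) were higher in 9 of 9 mice. Clu was lower in 9 of 9 (-1.54 ± 0.15; 36.3 ± 8.59 TPM against 105 ± 15.8 TPM (SD, n = 9); limma adjusted p 1.6e-07). Anxa1 was higher by 0.54 (limma adjusted p 0.0394, 0.0647 with the mouse as a block, and 0.141 with TMM factors), and Ctgf lower over the 3 days together (-0.71, limma adjusted p 0.0438). Ctgf did not go 1 way on every day: neo-epithelium had the higher value in 3 of 3 mice at day 9 (mean difference 0.32) and in 0 of 3 at days 14 and 20 (-1.26 and -1.17). The Ctgf call was lost without any of mice 14 to 19 (0.0594 to 0.106) and that of Anxa1 without any of mice 11, 12, 13, 15, 16, 17 or 18 (0.0542 to 0.132). The neutrophil markers of the neo-epithelium were high at day 9 (sum without Ly6g 7211 to 18817 TPM, against 944 to 3142 TPM in anus). That sum was already 346 to 1365 TPM in uninjured anus, against 0.797 to 5.89 TPM in uninjured rectum. Whether it counts neutrophils alone in squamous tissue was not tested. The colonocyte sum of the neo-epithelium ran from 24.8 to 248 TPM at day 9 to 1515 to 2941 TPM at day 20. The part of these cell types in Anxa1, Ly6a and Anxa3 was not tested.

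**Figure D4:**
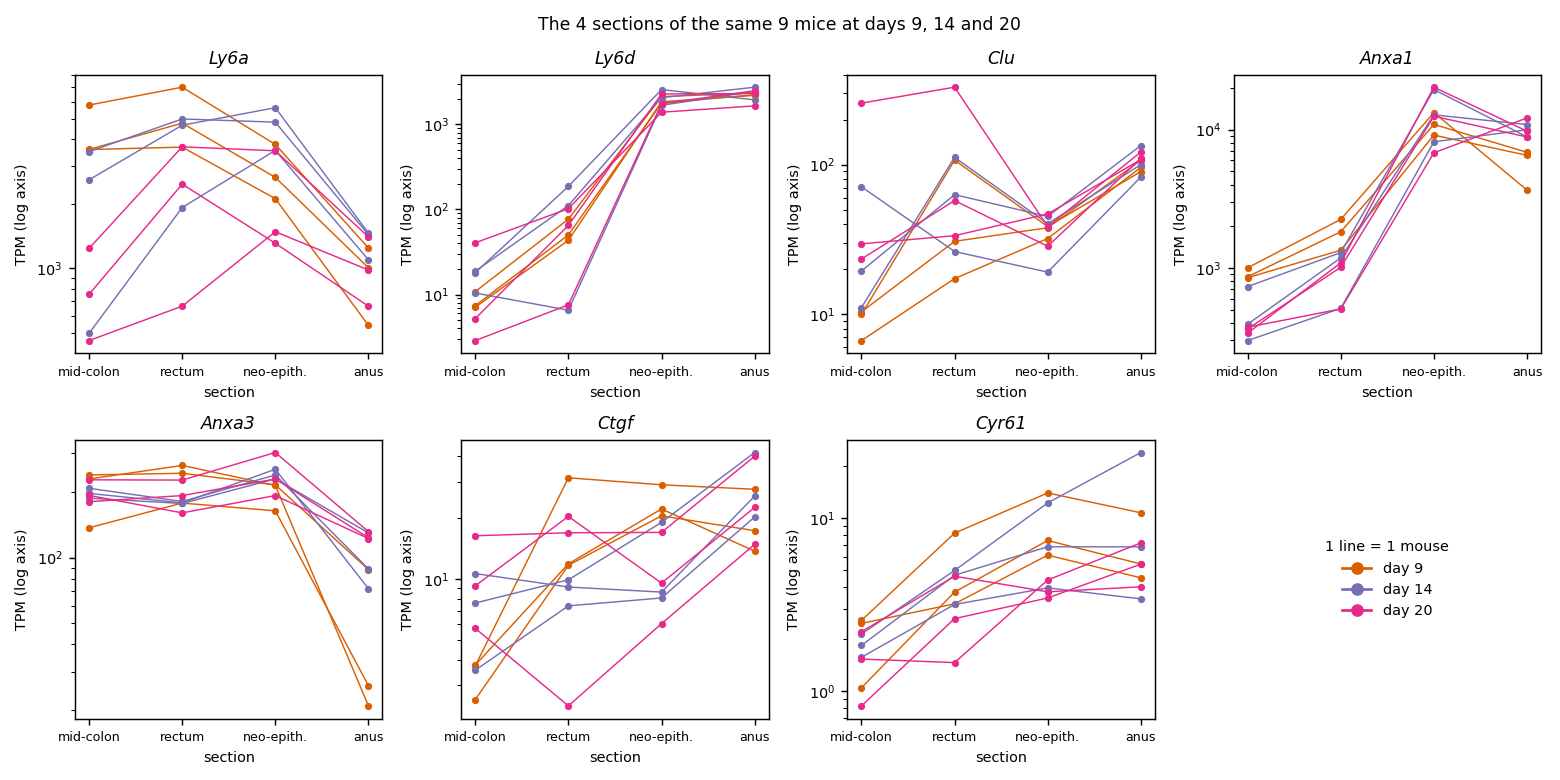
Level of each gene in TPM (log axis) in the 4 sections of the 9 mice that gave neo-epithelium; each line joins the sections of 1 mouse, coloured by day. Ly6d and Anxa1 climb from colon to neo-epithelium in every mouse, Ly6a drops from neo-epithelium to anus in 9 of 9, and Clu rises from neo-epithelium to anus in 9 of 9.

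Within the neo-epithelium, 2 members were lower at day 20 than at day 9, beside 26.2% of genes called (16.1% lower). Ctgf was 20.4, 22.1 and 29.0 TPM at day 9 and 9.54, 6.04 and 16.9 TPM at day 20 (log2 difference -1.16, limma adjusted p 0.04996). Cyr61 was 7.45, 6.13 and 14.0 TPM at day 9 and 3.76, 3.46 and 4.40 TPM (-0.99, limma adjusted p 0.0487). The days did not overlap for either gene, but both adjusted p-values sat at the threshold, and leaving out 1 mouse ended the call for Ctgf in 5 of 6 cases and for Cyr61 in 6 of 6. The fibroblast sum was 2052 to 3032 TPM at day 9 and 490.2 to 1006 TPM at day 20, and its part in both genes was not tested. Of the 16 other fetal-like genes, 10 were higher and 1 lower in neo-epithelium than in rectum (20.9% of all genes higher; median 0.90 against 0.00 for all genes). Against anus, 11 of 15 were higher and 2 lower (40.1% and 19.7% of all genes; median 1.03 against 0.18). Between days 9 and 14 no member was called in rectum (8.04% of genes; 1 member at an unadjusted limma p under 0.05) or mid-colon (19.7%; 4 members unadjusted).

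Across the 21 group means the members fell into more than 1 pattern. Pearson's r of log2(TPM + 1) was 0.934 between Ly6d and Anxa1, 0.893 between Ly6d and Cyr61 and 0.835 between Anxa1 and Cyr61. Ly6a was less like the others, with r from -0.455 (Ctgf) to 0.479 (Anxa3), and r was below 0 between Anxa3 and each of the 5 members other than Ly6a. These are descriptions over means that share mice, sections and scaling. Among 13572 genes, the 3 most like Ly6a by the same measure were Il18bp (0.955), Dusp6 (0.927) and Ly6i (0.927), of which Ly6i shares stretches of sequence with Ly6a. For Ly6d the first 2 were Tmem154 (0.988) and Krt13 (0.986). The 3 most alike were, for Anxa1, Prss27 (0.984), Car5b (0.983) and Pls3 (0.979) and, for Cyr61, Fkbp10 (0.970), Rcsd1 (0.966) and Igfbp4 (0.960). For Ctgf they were Cd34 (0.946), Islr (0.945) and Dbn1 (0.940), for Anxa3 Stx7 (0.946), Zfp54 (0.939) and Abi1 (0.938) and for Clu Myl7 (0.893), Rasgrp3 (0.880) and Sugp2 (0.879), whose best value was the lowest of the 7.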

How the data were processed

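Mucosal sections were cut from full-thickness colon and lysed in Trizol, and stranded mRNA libraries were read as 75-base single ends, per the labels' protocols. The authors deposited 1 table of TPM values per transcript, with kallisto, CASAVA and mm10 named in the submitters' processing notes. The table had 126860 rows, of which 37344 held no values and 1318 repeated an earlier row and were dropped. The remaining 88198 transcripts were summed per gene identifier into 30452 genes, and each sample then summed to 1000000. With repeats the columns had summed to between 1027330.2 and 1062208.5. The depth of the libraries is unknown, so no counting intervals are given.

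Tests used limma 3.58.1 (R 4.3.3) with an intensity trend on log2(TPM + 1), for genes that reached 1 TPM in a number of samples equal to the size of the smaller group. Only the groups compared entered each fit. Benjamini-Hochberg adjustment ran over all genes tested, with calls at 0.05. Fold changes are ratios of mean TPM where written as "-fold". Differences are on the log2(TPM + 1) scale, which understates changes of low genes, and no adjustment was made across the 27 comparisons. The alternatives were TMM factors, a pseudocount of 0.1, no filter, a filter of 5 TPM, 1 fit over all 66 samples, and leaving out each sample or mouse. Leaving out the sample nearest the other group favours a call, so a call gained only in that way is not read as support for a change. Sections of the same mouse share an animal, and the mouse was added as a replicate block for those comparisons. The deviations of paired sections from their group means correlated with a mean r of 0.0538 to 0.275 per comparison. The fits were also tested on simulated data.

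The 7 genes, the gene lists and the marker lists were chosen with earlier results of these data known. All 7 genes are named, from each list the genes with the largest called rise and fall per comparison, and the genes of the Ly6, annexin and CCN families. Other list genes were picked after their values were seen. The 3 genes most like each member are those with the highest Pearson's r over the 21 group means, among genes at 1 TPM in at least 9 samples. A few genes these rules pick are not reported here. Tables and figures were made with Python 3.11.15, pandas 2.3.3, numpy 2.4.6, scipy 1.17.1 and matplotlib 3.10.9.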

Additional observations from a re-analysis of the deposited data

Results flagged for a closer look

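In uninjured anus, Ly6a of mouse 1 was 807 TPM, and its gap to the other 3 mice (581 to 604 TPM) was wide for a group of 4 by Dixon's criterion. Over the 7 genes in the 3 uninjured sections, 21 sets of values in all, it was the only one to stand out, and chance marks about 1 in 20 such sets. At day 9 the responses of rectum and anus differed by the limma interaction test for Ly6a (2.55 on the log2 scale), Ly6d (1.96) and Anxa1 (1.74). Each had the larger rise in rectum on that scale. In TPM, mean Ly6d went from 11.2 to 56.9 in rectum and from 1813 to 2253 in anus between days 0 and 9.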

How the results depend on the processing

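Of 52 calls for the 7 genes over 27 comparisons, 28 were kept in every alternative run and 24 were lost in at least 1. One called value reversed: mid-colonic Anxa1 from day 6 to day 9 was -0.0256 with TMM factors. Under TPM scaling the median of all genes ran from -0.27 to 0.37 over the comparisons and under TMM factors from -0.15 to 0.08, a shift of over 0.1 in 12 of 27. The cause of the changes below was not tested.

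Counts of members called moved by over 1.5 times as follows. With TMM factors the member counts became 0 in anus at day 14 (710 of 13708 genes) and 2 in mid-colon between days 9 and 14 (3261 of 12399). They became 1 in rectum between days 6 and 9 (4400 of 12696), and 1 between uninjured rectum and mid-colon (102 of 12093). With a pseudocount of 0.1 the neo-epithelium at day 20 against day 9 had 1 (3352 of 13186). With a filter of 5 TPM mid-colon between days 9 and 14 had 1 (2157 of 8488). With no filter, which tests more genes, the counts were 0 in rectum at day 3 (597 of 20862), 1 in anus at day 6 (1623 of 21366) and 0 in anus at day 9 (373 of 21414). They were 1 in mid-colon between days 6 and 9 (4268 of 20922) and 0 between uninjured rectum and mid-colon (34 of 20940). They were 3 between neo-epithelium and anus (9328 of 22816), and 0 in neo-epithelium between days 9 and 20 (2740 of 20949). With 1 fit over all samples they were 2 in mid-colon (1513 of 12116) and 2 in rectum (1278 of 12677) at day 20. In rectum they were 0 at day 3 (285 of 12348) and 3 at day 9 (6688 of 13140). In anus they were 1 at day 6 (3629 of 13730), 2 at day 9 (1930 of 13591) and 2 at day 20 (1981 of 13747). The same fit gave 1 in mid-colon between days 6 and 9 (4925 of 12131), 2 between days 9 and 14 (3627 of 12317) and 1 in rectum between days 9 and 14 (3807 of 13115). It gave 0 between uninjured rectum and mid-colon (40 of 12037), and 1 in neo-epithelium between days 9 and 20 (4953 of 13186).

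Leaving out 1 sample or mouse gave counts from 0 to 4 in rectum at day 3 (0 without mouse 5), 3 to 5 at day 9, 1 to 5 at day 14 (5 without mouse 14) and 0 to 4 at day 20 (4 without mouse 19). In anus they ran from 0 to 2 at days 6, 9 and 14 and 0 to 1 at day 20. In mid-colon they ran from 1 to 2 at day 14, 1 to 3 between days 6 and 9 and 0 to 2 between days 9 and 14. They ran from 0 to 2 between uninjured rectum and mid-colon, 3 to 4 between neo-epithelium and anus, 0 to 1 in neo-epithelium between days 9 and 20, and 0 to 1 for rectal against mid-colonic responses at day 9.

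With the mouse as a replicate block, 2 members in place of 0 were called for rectal against mid-colonic responses at day 9 (7.87% of genes). For rectal against anal responses 6 in place of 3 were called (19% of genes). The call of Anxa1 in neo-epithelium against anus was lost, and the block ended no other call of the 7 genes. With 3 or 4 mice per group, small differences lie within the error, and TPM without counts gives no depth.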
